A study of Mus musculus with 19 samples.

Results

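The genes described here are 10 mouse genes that encode lipid droplet coat proteins or control triglyceride breakdown in the liver. They were taken by name, as the rows of the gene count table whose Ensembl IDs map to Plin2, Plin4, Plin5, Cidec, Cideb, G0s2, Pnpla2, Abhd5, Angptl4 and Lpin1. All 10 were found among 55416 gene rows, and all 10 were among the 15570 genes that passed the low-count filter. Poly(A) RNA was sequenced from whole liver of C57BL/6 mice in 19 libraries. IL-6 -/- mice (knockout) with furosemide-induced pre-renal azotemia (PRA) gave 3 libraries and vehicle-injected knockout mice gave 4. Wild-type (WT) mice with PRA, WT mice given vehicle and non-injected WT mice gave 4 libraries each. Injected mice were given 2 intraperitoneal doses of vehicle or of 4 mg furosemide each, separated by 3 h, and their livers were harvested at 6 h from the first one. Furosemide is a loop diuretic, and pre-renal azotemia is the build-up of nitrogenous waste in blood when the kidneys are poorly perfused. The labels give neither age, sex and feeding nor what the vehicle was, and non-injected mice were WT. They also do not state that each replicate is its own animal, so the error behind every p-value is the spread among these libraries and could be technical.

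Hepatocytes store triglyceride in lipid droplets, whose surface carries perilipins and CIDE proteins. Adipose triglyceride lipase, encoded by Pnpla2, removes the first fatty acid from stored triglyceride. It is activated by the protein of Abhd5 (also called CGI-58) and inhibited by that of G0s2. Lpin1 encodes lipin-1, a phosphatidate phosphatase of triglyceride synthesis that also acts as a nuclear coactivator of fatty acid oxidation genes. Angptl4 encodes a secreted inhibitor of lipoprotein lipase, the enzyme that frees fatty acids from circulating lipoproteins. Several of these genes are classic targets of PPAR-alpha, a nuclear receptor for fatty acids, and respond to fasting and to glucocorticoids.

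The libraries held 32073865 to 74041441 gene counts, and the lowest count of any of the 10 genes in any library was 41 (Cidec), so no value of these 10 genes rests on a count near 0. Some values of other genes below, such as Il6 and several cell type markers, do. Levels are CPM (gene counts scaled to a common library size by TMM), with the SD among a group's libraries after every ± beside a mean and the SE after every ± beside a log2 fold change. TMM factors were 0.8736 to 0.9533 in knockout PRA and 1.025 to 1.08 in knockout vehicle libraries. They were 0.8454 to 0.8897 in WT PRA, 1.013 to 1.155 in WT vehicle and 1.109 to 1.153 in non-injected libraries. Every PRA factor was below every vehicle factor, which raises PRA levels relative to counts divided by library totals alone. Differences are log2 fold changes of an edgeR quasi-likelihood fit to all 19 libraries, with p-values adjusted over all genes tested and a threshold of 0.05. The targeted gene, Il6, had 1 to 16 counts in the knockout libraries, 0 to 4 in the injected WT libraries and 0 to 2 in the non-injected ones, which cannot check the genotype labels. The summed level of 9 hepatocyte markers was 129700 to 171200 CPM in knockout PRA and 114300 to 123700 CPM in knockout vehicle libraries, and 125300 to 138800 CPM in WT PRA and 90440 to 117200 CPM in WT vehicle libraries, so that PRA and vehicle did not overlap in either genotype; non-injected libraries were at 83580 to 96180 CPM. Alb was the largest part of this sum, with means of 85490 CPM in knockout PRA, 68480 in knockout vehicle, 64410 in WT PRA and 59330 in WT vehicle livers. The sum also holds Fga, with means of 7432, 5946, 15900 and 6159 CPM in the same groups. It therefore follows a few abundant genes and is no measure of the share of hepatocytes. The non-overlap of the PRA and vehicle sums is after TMM scaling and was not examined without it. In whole liver, fewer cells of a type and less RNA per cell cannot be told apart. Reads were counted with an unstated strand setting. In the GENCODE M21 annotation Cideb shares 1136 of its 1488 exon bases with Nop9 on the opposite strand, and Abhd5 shares 950 of 5956 with an antisense RNA, so the values of these 2 genes may hold or lack reads of their partners.

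Promoter windows were found in the RefSeq table (GRCm38.p6) for 9 of the 10 genes; Angptl4 was not matched. Shown are the windows of Plin4 and Plin5, which are neighbours on chromosome 17, of Lpin1, which rose more than Plin5 and less than Plin4 in knockout livers, and of G0s2, which fell. Each runs 5′ to 3′ from 250 bases before the annotated start to 50 after it, with capitals marking AGGTCA, the core hexamer bound by nuclear receptors such as the PPARs, on either strand.
Plin4, chr17:56109733-56110032, minus strand: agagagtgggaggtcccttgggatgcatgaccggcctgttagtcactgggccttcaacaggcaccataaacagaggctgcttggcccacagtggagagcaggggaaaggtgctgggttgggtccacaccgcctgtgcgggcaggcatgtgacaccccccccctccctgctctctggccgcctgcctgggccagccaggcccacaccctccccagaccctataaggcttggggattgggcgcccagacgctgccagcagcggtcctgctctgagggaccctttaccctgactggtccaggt
Plin5, chr17:56117499-56117798, minus strand: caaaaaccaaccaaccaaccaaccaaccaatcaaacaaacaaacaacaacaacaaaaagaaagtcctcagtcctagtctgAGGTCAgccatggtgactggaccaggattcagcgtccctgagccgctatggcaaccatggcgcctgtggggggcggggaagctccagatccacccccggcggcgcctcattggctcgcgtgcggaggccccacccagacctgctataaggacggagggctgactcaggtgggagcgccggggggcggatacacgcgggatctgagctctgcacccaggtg
Lpin1, chr12:16610917-16611216, minus strand: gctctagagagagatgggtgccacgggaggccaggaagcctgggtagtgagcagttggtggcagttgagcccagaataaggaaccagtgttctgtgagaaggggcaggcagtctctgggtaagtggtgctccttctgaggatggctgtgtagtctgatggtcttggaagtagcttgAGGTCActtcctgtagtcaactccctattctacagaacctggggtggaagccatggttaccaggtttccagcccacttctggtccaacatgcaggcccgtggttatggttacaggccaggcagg
G0s2, chr1:193273139-193273438, minus strand: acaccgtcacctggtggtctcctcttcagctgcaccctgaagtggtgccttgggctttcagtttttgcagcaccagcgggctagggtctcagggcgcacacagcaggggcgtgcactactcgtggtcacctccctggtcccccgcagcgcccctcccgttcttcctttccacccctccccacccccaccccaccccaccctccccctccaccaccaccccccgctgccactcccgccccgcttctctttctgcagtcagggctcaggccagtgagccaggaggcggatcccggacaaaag

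AGGTCA stood once in the Plin5 window, beginning 170 bases before the start, and once in the Lpin1 window, beginning 74 bases before it. Plin5 has a second annotated start, whose window holds a separate copy of it, beginning 13 bases after that start. The windows of Plin2 and Abhd5, which passed in 0 of the comparisons fitted over all groups, hold AGGTCA as well, on the other strand. It was in neither the Plin4 nor the G0s2 window, and 16.3% of the 32851 promoter windows of mouse genes hold it. The other motifs, searched on both strands, were TGTTTAC of forkhead factors (in 3.65% of all windows), TGTTCT of the glucocorticoid receptor (19%), the E-box CACGTG (7.15%) and the core promoter element TATAAA (13.6%). No match of these overlapped AGGTCA in the windows shown. Of these, the Lpin1 window held TGTTCT, beginning 163 bases before the start, and the other 3 windows held none. A match describes letters in a window, not a bound site.

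After PRA the lipase transcript rose and that of its inhibitor fell in both genotypes. Of the 10 genes, 6 passed in knockout PRA against knockout vehicle, against a background of 16.3% of all genes, and 5 passed in WT PRA against WT vehicle, against 22.1%. The 10 genes were chosen with earlier results of these data known, so these shares describe the set and do not test it. In knockout livers 5 rose (background 7.96%) and 1 fell (8.38%), and in WT livers 4 rose (9.74%) and 1 fell (12.3%). Pnpla2, Plin4, Angptl4 and Lpin1 rose and G0s2 fell in both genotypes, and Plin5 passed in knockout livers. The median log2 fold change of the 10 genes was 0.84 in knockout livers, against -0.0043 over all genes, and 0.34 in WT livers, against -0.03 over all genes. With upper quartile scaling the share of higher genes among all those called was 35.3% in place of 48.7% in knockout livers and 34% in place of 44.1% in WT livers, and each of the 10 genes kept its side of the threshold under that scaling in both genotypes. In knockout livers the PRA and vehicle libraries did not overlap for 6 genes, 5 higher and 1 lower, against 25.2% of all genes (11.9% higher, 13.2% lower). In WT livers they did not overlap for 6 genes either, 5 higher and 1 lower, against 23.2% (11.1% higher, 12.1% lower). Markers of liver cell types moved alongside. In each genotype 3 of 9 hepatocyte markers rose and 0 fell. Stellate cell markers fell in 3 of 11 cases in knockout and 5 of 11 in WT livers, and sinusoidal endothelial markers fell in 3 of 10 and rose in 1 in knockout livers and fell in 6 of 10 and rose in 1 in WT livers. Of 8 Kupffer cell markers 0 passed in either genotype. Of 8 neutrophil markers tested, 3 rose and 0 fell in knockout livers, and 7 rose and 0 fell in WT livers. The part of these cells in the members' changes was not tested.

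**Figure D1:**
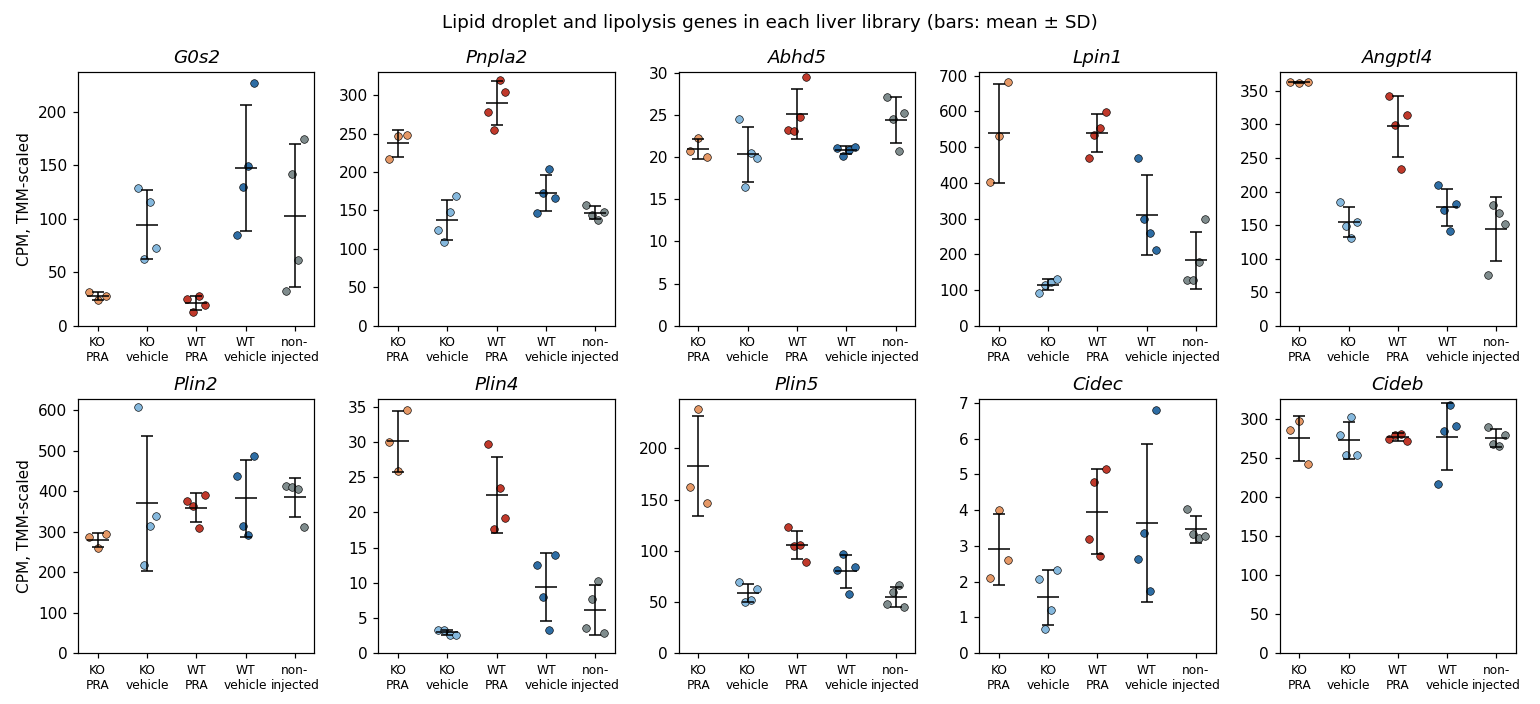
TMM-scaled CPM of each of the 10 genes (y axis, from 0) in each library, with the 5 groups on the x axis, points for libraries and bars for mean ± SD. The PRA points of G0s2 lie below all vehicle points and those of Pnpla2, Plin4 and Angptl4 above them in both genotypes, while Plin2 and Cideb overlap between PRA and vehicle.

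G0s2 (ENSMUSG00000009633), the lipase inhibitor, fell most among the 10 genes. In knockout livers it was at 31.8, 24.3 and 27.7 CPM after PRA, against 128, 62.1, 115 and 72.5 CPM after vehicle. In WT livers it was at 25.1, 12.6, 27.5 and 19 CPM after PRA, against 85.1, 130.1, 149 and 227 CPM after vehicle. The 7 PRA libraries all lay below the 8 vehicle libraries, whose values spread widely. Non-injected livers spread more widely still, at 32.3, 142, 61.5 and 175 CPM, and the lowest of them lay close to the highest PRA value. The log2 fold change was -1.76 ± 0.51 in knockout livers (SE, edgeR adjusted p = 0.0291) and -2.81 ± 0.48 in WT livers (edgeR adjusted p = 0.000666), and the difference between the genotypes did not pass (1.06 ± 0.66, edgeR adjusted p = 0.728, 95% interval -0.36 to 2.47). In knockout livers the call was lost without vehicle replicate 1 (edgeR adjusted p = 0.0697) or 3 (0.0621) and without PRA replicate 1 (0.0673), 2 (0.106) or 3 (0.0811), with log2 fold changes of -1.58 to -1.84, and with no low-count filter (-1.76, adjusted p = 0.0554). Neutrophils also express G0s2, and the summed CPM of 12 neutrophil markers moved the other way in WT livers, at 12.97 to 15.03 after PRA and 1.65 to 3.78 after vehicle. In knockout livers that sum was 4.97 to 14.6 after PRA and 5.18 to 7.08 after vehicle, although 3 of the 8 markers tested rose there and 0 fell. The background there was 7.96% of all genes higher and 8.38% lower. The part of these cells in the result was not tested.

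Pnpla2 (ENSMUSG00000025509), the lipase itself, rose by nearly the same factor in both genotypes. It was at 217, 247 and 248 CPM in knockout livers after PRA, against 124, 109, 147 and 169 CPM after vehicle. WT livers had 279, 255, 319.8 and 305 CPM after PRA, against 147, 173, 204 and 167 CPM after vehicle. No PRA library overlapped a vehicle library of its genotype. The rise was 1.73-fold in knockout livers (log2 0.79 ± 0.13, edgeR adjusted p = 0.000232) and 1.68-fold in WT livers (0.75 ± 0.12, edgeR adjusted p = 0.000143). The difference between the 2 responses was 0.04 ± 0.18 (edgeR adjusted p = 0.983), with a 95% interval of -0.32 to 0.41. Abhd5 (ENSMUSG00000032540), the lipase's coactivator, did not pass in either genotype. It averaged 21.01 ± 1.20 CPM in knockout PRA livers and 20.4 ± 3.28 CPM in knockout vehicle livers (log2 0.05 ± 0.12, edgeR adjusted p = 0.835), and 25.2 ± 2.97 CPM in WT PRA livers and 20.8 ± 0.463 CPM in WT vehicle livers (0.27 ± 0.11, edgeR adjusted p = 0.0748). The 4 WT PRA libraries, from 23.1 CPM up, lay above the 4 WT vehicle libraries, of which the highest was at 21.2 CPM, and non-injected livers were at 20.7 to 27.2 CPM. This non-overlap is after TMM scaling, whose factors were lower in PRA than in vehicle libraries, and was not examined on unscaled counts. The WT difference of Abhd5 passed without knockout vehicle replicate 2 (edgeR adjusted p = 0.0477) and in sample-weighted limma-voom (adjusted p = 0.0354).

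Set against each other per exon length, the lipase transcript exceeded that of its inhibitor in every PRA library. The ratio of Pnpla2 to G0s2, each in CPM per kb of exons, was 1.97, 2.93 and 2.58 in knockout PRA libraries, against 0.279, 0.505, 0.368 and 0.67 in knockout vehicle libraries. It was 3.2, 5.84, 3.35 and 4.63 in WT PRA libraries, against 0.499, 0.383, 0.394 and 0.212 in WT vehicle libraries. All 7 PRA ratios were above 1 and all 8 vehicle ratios below it. Non-injected libraries were at 1.41, 0.293, 0.643 and 0.244, so replicate 1 of that group, which had the lowest G0s2, also exceeded 1. Where 1 falls depends on the exon lengths used, 3020 bases for Pnpla2 and 871 for G0s2. They come from GENCODE M21, which is not the annotation of the counts. Without division by length, mean Pnpla2 exceeded mean G0s2 after vehicle too, at 137 against 94.6 CPM in knockout and 173 against 148 CPM in WT livers. The ratio combines 2 of the 10 genes with results known and was not tested.

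**Figure D2:**
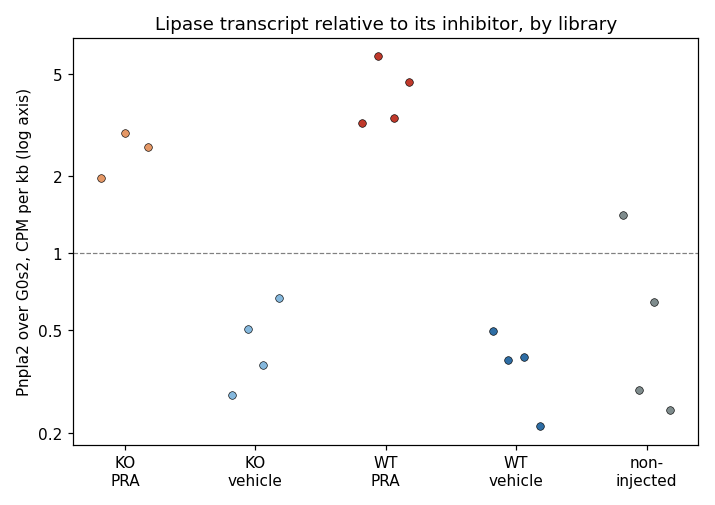
Ratio of Pnpla2 to G0s2 (y axis, log scale, each in CPM per kb of exons) in each library, by group on the x axis, with a dashed line at 1. Where the libraries fall against this line depends on the exon lengths used. PRA libraries lie between 1.97 and 5.84 and vehicle libraries between 0.212 and 0.67, with 1 non-injected library, at 1.41, above the line.

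Lpin1 (ENSMUSG00000020593), encoding lipin-1, averaged 539 ± 139.5 CPM in knockout PRA and 539 ± 53.3 CPM in WT PRA livers, and rose in both genotypes. Knockout livers had 403, 532 and 682 CPM after PRA, against 93.2, 114, 123 and 131 CPM after vehicle. WT livers had 471, 534, 552 and 599.6 CPM after PRA, against 469, 299.5, 259 and 213 CPM after vehicle. The lowest PRA library was far above vehicle in knockout livers but only just above the highest vehicle library, replicate 1, in WT livers. The rise was 4.67-fold in knockout livers (log2 2.23 ± 0.29, edgeR adjusted p = 6.11e-05) and 1.74-fold in WT livers (0.80 ± 0.27, edgeR adjusted p = 0.0417). The WT call was lost without any of WT vehicle replicates 2, 3 and 4, WT PRA replicates 1 to 4, knockout vehicle replicates 2 and 3 or knockout PRA replicate 2 (edgeR adjusted p = 0.0512 to 0.114), and with no low-count filter (adjusted p = 0.105). Without WT vehicle replicate 1 it was 1.08 (edgeR adjusted p = 0.00762). The difference between the responses was 1.43 ± 0.39 (edgeR adjusted p = 0.168, 95% interval 0.60 to 2.25), and it passed without non-injected replicate 4 (adjusted p = 0.0385) and when only the 4 injected groups were fitted (1.42, adjusted p = 0.0456). Knockout against WT livers differed by -0.0017 ± 0.29 after PRA (edgeR adjusted p = 0.999) and by -1.43 ± 0.27 after vehicle (edgeR adjusted p = 0.0716). The vehicle difference passed without non-injected replicate 2 (adjusted p = 0.0481) or 4 (0.00653) and in DESeq2 (-1.42, adjusted p = 0.00169), and the 4 knockout vehicle libraries all lay below the 4 WT vehicle ones.

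Angptl4 (ENSMUSG00000002289), the inhibitor of lipoprotein lipase, rose in both genotypes. Knockout livers had 364, 362 and 363 CPM after PRA, against 184, 149, 130.1 and 154 CPM after vehicle. WT livers had 342, 299, 233 and 314 CPM after PRA, against 209.5, 172, 141 and 182 CPM after vehicle. The 3 knockout PRA libraries lay within 3 CPM of each other, above every other library of the series. The rise was 2.35-fold in knockout livers (log2 1.23 ± 0.21, edgeR adjusted p = 0.00054) and 1.69-fold in WT livers (0.75 ± 0.20, edgeR adjusted p = 0.0101). The difference between the responses, 0.48 ± 0.29, did not pass (edgeR adjusted p = 0.701, 95% interval -0.13 to 1.09).

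The perilipins, the main droplet coat proteins, differed in their PRA calls. Plin4 (ENSMUSG00000002831) and Plin5 (ENSMUSG00000011305) rose in knockout livers, and Plin2 (ENSMUSG00000028494) did not pass in any comparison. Per exon length, mean Plin2 was the highest of the 3 in all groups but knockout PRA. There Plin2 and Plin5 did not differ beyond their spread. Per kb of exons Plin2, Plin4 and Plin5 were at 79.7 ± 5.11, 5.21 ± 0.751 and 87.5 ± 23.5 CPM in knockout PRA livers, against 105 ± 47.6, 0.507 ± 0.0632 and 28.0 ± 4.32 CPM in knockout vehicle livers. WT PRA livers had 102 ± 10.1, 3.90 ± 0.934 and 50.7 ± 6.61 CPM per kb of the same 3 genes, against 109 ± 27.1, 1.63 ± 0.835 and 38.2 ± 7.87 in WT vehicle livers.

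Plin4, a perilipin best known from adipose tissue and muscle, had the largest rise of the 10 genes. Knockout livers had 29.9, 25.8 and 34.5 CPM after PRA, against 3.26, 3.23, 2.63 and 2.59 CPM after vehicle. WT livers had 29.7, 17.6, 23.5 and 19.2 CPM after PRA, against 12.5, 7.93, 3.32 and 14 CPM after vehicle. PRA and vehicle did not overlap in either genotype, but the gap was wide in knockout livers, where all vehicle libraries were low, and narrow in WT livers. The rise was 10.3-fold in knockout livers (log2 3.36 ± 0.45, edgeR adjusted p = 0.000118) and 2.37-fold in WT livers (1.25 ± 0.40, edgeR adjusted p = 0.0346). The WT call was lost without WT vehicle replicate 2 (log2 1.17, edgeR adjusted p = 0.0848) or 3 (0.97, 0.0603) and WT PRA replicate 1 (1.09, 0.0917) or 3 (1.22, 0.0658). It was also lost when only the 2 WT groups were fitted (1.26, adjusted p = 0.0743) and with no low-count filter (1.24, adjusted p = 0.0752). The difference between the responses was 2.11 ± 0.59 (edgeR adjusted p = 0.188, 95% interval 0.86 to 3.37) and passed without WT vehicle replicate 3 (2.39, adjusted p = 0.0462) and in DESeq2 (2.10, adjusted p = 0.0495). After vehicle, knockout livers differed from WT livers by -1.69 ± 0.42 (edgeR adjusted p = 0.302), and DESeq2 gave an adjusted p of 0.0204. After PRA, knockout livers differed from WT livers by 0.42 ± 0.42 (edgeR adjusted p = 0.696), and their libraries overlapped. Adipocytes also express Plin4. Of the 11 adipocyte and mesothelial markers, 7 could be tested, and in each genotype 1 rose (Fabp4) and 1 fell (Adrb3) after PRA. The highest level of Cfd (adipsin) was 0.25 CPM in knockout PRA, 0.668 in knockout vehicle, 3.81 in WT PRA, 4.16 in WT vehicle and 1.05 CPM in non-injected libraries. Plin1 reached 0.0425 CPM in knockout PRA, 0 in knockout vehicle, 0.503 in WT PRA, 0.164 in WT vehicle and 0.0177 CPM in non-injected libraries. Adipoq was at most 0.288 CPM and Lep at most 0.144 CPM, both in WT PRA. The list, of which Car3 made up most, summed to 2016 to 2927 CPM in knockout PRA, 1843 to 2438 in knockout vehicle, 2178 to 2593 in WT PRA, 1713 to 2504 in WT vehicle and 1534 to 1976 CPM in non-injected libraries. The part of these cells in the Plin4 result was not tested.

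Plin5, which tethers droplets to mitochondria and binds the lipase and its coactivator, was the 1 gene of the 10 whose PRA response passed the test of a difference between genotypes. Knockout livers had 163, 239 and 147 CPM after PRA, against 69.3, 50.3, 51.9 and 62.6 CPM after vehicle. WT livers had 123, 105, 106 and 89.4 CPM after PRA, against 81.5, 96.7, 57.3 and 83.8 CPM after vehicle. All knockout PRA libraries were above every other library of the series, while WT PRA and WT vehicle overlapped. The log2 fold change was 1.64 ± 0.19 in knockout livers (edgeR adjusted p = 7.51e-06) and 0.41 ± 0.17 in WT livers (edgeR adjusted p = 0.1). The difference of 1.24 ± 0.25 passed (edgeR adjusted p = 0.0258), against a background of 0.475% of all genes, of which 6 genes (0.0385%) differed in this direction and 68 (0.437%) in the other. It was lost without WT vehicle replicate 1 (edgeR adjusted p = 0.0535), 2 (0.0662) or 4 (0.061), WT PRA replicate 2 (0.0578), 3 (0.0618) or 4 (0.0612), knockout vehicle replicate 2 (0.0513) or 3 (0.0665) and knockout PRA replicate 2 (0.0952), where the difference was 0.99, and with no low-count filter (adjusted p = 0.0511). After PRA, knockout livers were above WT livers by 0.79 ± 0.18 (edgeR adjusted p = 0.0184), the 1 gene of the 10 that passed in that comparison, against a background of 3.8% (1.64% higher, 2.15% lower). This call was lost without knockout PRA replicate 2 (0.54, edgeR adjusted p = 0.13), which had the highest value, and without WT PRA replicate 3 (adjusted p = 0.0505) or 4 (0.0653).

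Plin2, the ubiquitous droplet coat protein whose level usually follows stored fat, was at 286, 260 and 294 CPM in knockout PRA livers, against 607, 217, 315 and 339 CPM after vehicle. It was at 375, 364, 309 and 389.6 CPM in WT PRA livers, against 439, 313, 292 and 487.5 CPM after vehicle. PRA and vehicle overlapped in both genotypes. The log2 fold changes were -0.40 ± 0.25 (edgeR adjusted p = 0.3, 95% interval -0.92 to 0.12) in knockout and -0.09 ± 0.23 (edgeR adjusted p = 0.812, -0.57 to 0.39) in WT livers. After PRA the 3 knockout libraries lay below the 4 WT libraries, a difference of -0.36 ± 0.25 that did not pass (edgeR adjusted p = 0.528) unless only these 2 groups were fitted (-0.39, adjusted p = 0.0448). The 3 knockout PRA libraries also lay below the 4 WT PRA libraries for Pnpla2 (-0.29 ± 0.13, edgeR adjusted p = 0.272) and Abhd5 (-0.26 ± 0.12, edgeR adjusted p = 0.265), and above them for Plin5 and Angptl4 (0.29 ± 0.21 for Angptl4, edgeR adjusted p = 0.557). Such non-overlap, here 2 genes higher and 3 lower, occurred in 15.7% of all genes (8.48% higher, 7.26% lower).

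The CIDE genes, whose proteins fuse and enlarge droplets, did not pass in any comparison. Cidec (ENSMUSG00000030278), which promotes large droplets in fat cells and in fatty liver, was scarce. It was at 2.11, 4.00 and 2.59 CPM in knockout PRA livers, against 2.07, 0.665, 1.20 and 2.31 CPM after vehicle, a log2 fold change of 0.90 ± 0.43 (edgeR adjusted p = 0.169). It averaged 3.96 ± 1.19 CPM in WT PRA livers and 3.63 ± 2.21 CPM in WT vehicle livers (0.13 ± 0.38, edgeR adjusted p = 0.838), and the value turned to -0.09 without WT vehicle replicate 3 and to -0.02 without WT PRA replicate 4. Cideb (ENSMUSG00000022219), which acts in the loading of very low density lipoprotein in hepatocytes, had the highest mean of the 10 genes per exon length in every group. In WT vehicle livers Cideb, at 186 ± 28.9 CPM per kb, and G0s2, at 170 ± 67.8, did not differ beyond their spread. The group means of Cideb were 275 ± 29.0 CPM in knockout PRA, 273 ± 23.5 in knockout vehicle, 276 ± 4.86 in WT PRA, 277 ± 43.0 in WT vehicle and 275 ± 11.5 CPM in non-injected livers. The 95% interval of the log2 fold change of Cideb was -0.22 to 0.24 in knockout and -0.22 to 0.21 in WT livers.

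**Figure D3:**
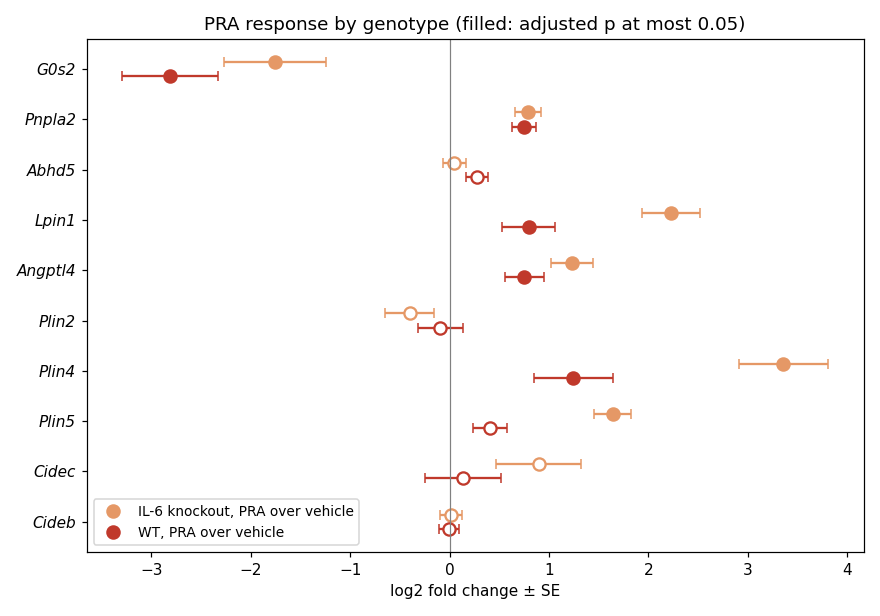
Log2 fold change of PRA over vehicle (x axis) with its SE for each of the 10 genes (y axis), knockout above WT, filled where the adjusted p was at most 0.05. Knockout values of Plin4, Plin5 and Lpin1 lie at 3.36, 1.64 and 2.23, right of their WT values of 1.25, 0.41 and 0.80, and those of Pnpla2 lie at 0.79 in knockout and 0.75 in WT livers.

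Vehicle injection was compared with no injection in WT livers. No gene of the 10 passed, against a background of 2% of all genes, 3 had an unadjusted p under 0.05, against 15.2% of all genes at that level, and 0 passed in DESeq2 or limma-voom. Of these 3, Plin5 differed by 0.54 ± 0.17 (edgeR adjusted p = 0.118), Lpin1 by 0.76 ± 0.27 (edgeR adjusted p = 0.165) and Abhd5 by -0.23 ± 0.11 (edgeR adjusted p = 0.317). Higher genes made up 1.18% and lower genes 0.822% of all genes. Vehicle and non-injected libraries overlapped for all 10 genes, while they did not for 8.52% of all genes (4.74% higher, 3.78% lower). Lpin1 passed without non-injected replicate 4 (1.10, edgeR adjusted p = 0.0206). That library had 299 CPM of Lpin1, and the other non-injected ones 127 to 178 CPM. Plin5 passed without WT vehicle replicate 3 (0.67, edgeR adjusted p = 0.0468). Against non-injected livers, WT PRA livers differed in 6 of the 10 genes, 5 higher and 1 lower (background 28.4%, with 13.5% higher and 14.9% lower). The same 6 genes had groups that did not overlap, against 33.6% of all genes (16.7% higher, 16.9% lower). Pnpla2 was 1.97-fold higher (edgeR adjusted p = 3.98e-06), Angptl4 2.06-fold (0.000643), Lpin1 2.95-fold (0.000392), Plin4 3.64-fold (0.00288) and Plin5 1.93-fold (0.000433), and G0s2 was lower by 2.29 ± 0.47 on the log2 scale (edgeR adjusted p = 0.00202). This comparison shares its WT PRA libraries with the comparison against vehicle.

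Knockout against WT livers after vehicle gave no call among the 10 genes, against a background of 0.0706% (0.0514% higher, 0.0193% lower), and 5 had an unadjusted p under 0.05, against 5.99% of all genes at that level (3.1% higher, 2.9% lower). DESeq2 called 2, Lpin1 and Plin4, and limma-voom called 0. All 5 (Plin4, Plin5, Cidec, Pnpla2 and Lpin1) were lower on average in knockout livers, by 1.69, 0.45, 1.23, 0.33 and 1.43 on the log2 scale. Knockout vehicle libraries lay wholly below WT vehicle libraries for Plin4 and Lpin1, and non-overlap occurred in 2.68% of all genes (1.54% higher, 1.14% lower).

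Per exon length, the 10 genes fell into the same 2 tiers in every group. Cidec, Plin4 and Abhd5 were at 0.507 to 5.21 CPM per kb and the other 7 at 11.9 to 186 CPM per kb. G0s2 ranked 7 of 10 in both PRA groups, at 32.1 ± 4.28 CPM per kb in knockout PRA and 24.2 ± 7.66 in WT PRA livers. It ranked 2 of 10 in the other groups, at 109 ± 37.0 in knockout vehicle, 170 ± 67.8 in WT vehicle and 118 ± 76.8 CPM per kb in non-injected livers. In the vehicle and non-injected groups G0s2 and Plin2 did not differ beyond their spread, nor did Pnpla2 and Angptl4. Exon lengths come from GENCODE M21, which is not the annotation of the counts, so levels between genes are approximate.

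**Figure D4:**
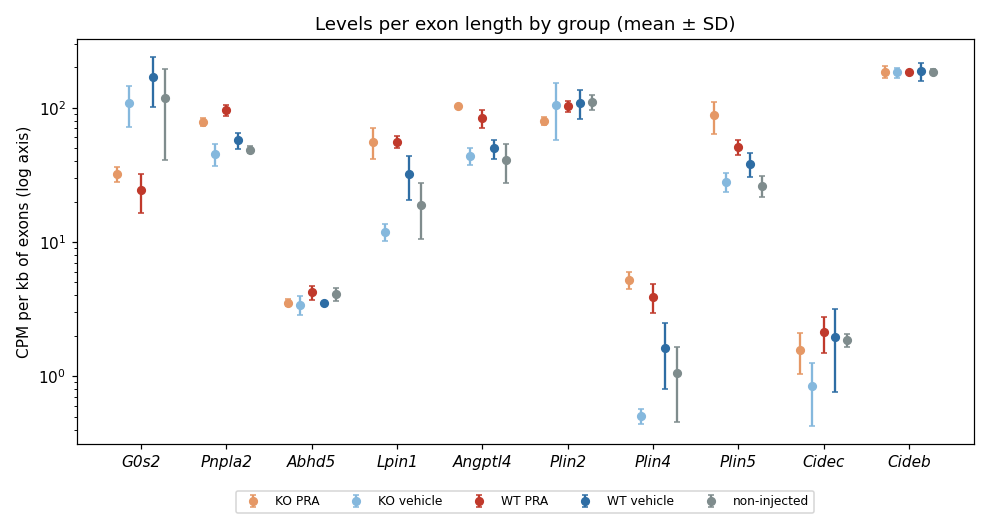
Mean ± SD of CPM per kb of exons (y axis, log scale) for the 10 genes on the x axis, by group. G0s2 sits at 24.2 to 32.1 in the PRA groups and 109 to 170 in the others, Cideb stays between 183 and 186, and Plin4 ranges from 0.507 to 5.21.

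Across the 19 libraries, which share the treatment contrast, Plin4, Plin5 and Angptl4 had similar profiles. Pearson r of log2 CPM was 0.869 for Plin4 and Plin5, 0.859 for Plin4 and Angptl4 and 0.872 for Plin5 and Angptl4. Within groups, after the group means were removed, the same pairs had r of 0.58, 0.548 and 0.447. Pnpla2 and Lpin1 had r of 0.832 over libraries and 0.012 within groups, so they moved together between groups and not among replicates. G0s2 and Pnpla2 had r of -0.7 over libraries and 0.135 within groups. Plin2 and Cidec, neither of which passed, had r of 0.645 within groups.

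Among 10088 other genes of at least 2 CPM, the profile most like that of Pnpla2 over the 19 libraries was Map1lc3b (r = 0.961), which encodes an autophagosome membrane protein. The closest to Plin4 were Atl2 (0.932), Rapgef5 (0.909) and Chd9 (0.908), to Plin5 Arl4a (0.91), Tns1 (0.907) and Gsk3b (0.896), and to Lpin1 Ptar1 (0.931), Pptc7 (0.917) and Adarb1 (0.915). G0s2 was most like H2-K2 (0.882), Angptl4 most like Gin1 (0.944), Abhd5 most like Arl1 (0.88), Cideb most like Otub1 (0.937), Cidec most like Ctps (0.884) and Plin2 most like Casp8 (0.812). These are descriptions over libraries that share groups and differ in depth.

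Other genes of droplets and triglyceride metabolism, from lists of named genes, were read against the same test. Over all genes, 16.3% passed in knockout livers (7.96% higher, 8.38% lower) and 22.1% in WT livers (9.74% higher, 12.3% lower). These shares are the background of each list. The lists too were chosen with earlier results of these data known. Of 11 other droplet coat and assembly genes tested, 0 passed in knockout livers and 1 rose in WT livers, Rab18, a droplet-associated GTPase, at 83.9 ± 5.35 CPM in WT PRA and 61.4 ± 3.30 CPM in WT vehicle livers (1.37-fold, edgeR adjusted p = 9.26e-05). The median log2 fold change of the list was 0.08 in knockout and 0.13 in WT livers. Of 20 other lipases and esterases, 1 rose and 1 fell in knockout livers and 2 fell in WT livers (medians 0.07 in knockout and -0.0038 in WT livers). Lipa, the lysosomal acid lipase, fell by 0.40 ± 0.11 in knockout livers (edgeR adjusted p = 0.0122) and by 0.63 ± 0.10 in WT livers (edgeR adjusted p = 8.48e-05). Lipe, hormone-sensitive lipase, fell by 0.47 ± 0.16 in WT livers (edgeR adjusted p = 0.0449), and Lipg, endothelial lipase, rose 2.16-fold in knockout livers (edgeR adjusted p = 0.0292). Lipg averaged 16.4 ± 7.36 CPM in knockout PRA and 7.60 ± 0.623 in knockout vehicle livers, the lowest of the groups. It was at 10.3 ± 1.81 CPM in WT PRA, 12.6 ± 4.97 in WT vehicle and 24.1 ± 8.79 in non-injected livers.

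Triglyceride synthesis genes went both ways. Of 18, 6 rose and 4 fell in knockout livers (median 0.22), and 1 rose and 4 fell in WT livers (median -0.05). The background was 16.3% of all genes in knockout and 22.1% in WT livers. Gpat4, a glycerol-3-phosphate acyltransferase of the first step, rose 1.82-fold in knockout livers (203 ± 27.8 CPM after PRA, against 112 ± 15.6 CPM after vehicle, edgeR adjusted p = 0.000147) and 1.65-fold in WT livers (246 ± 24.3 CPM after PRA, against 149 ± 17.3 CPM after vehicle, edgeR adjusted p = 0.000296). Plpp3, a lipid phosphate phosphatase, fell by 0.69 ± 0.13 in knockout livers (edgeR adjusted p = 0.00114) and by 0.62 ± 0.12 in WT livers (edgeR adjusted p = 0.000877). Dgat1, which performs the last acylation, rose 1.33-fold in knockout livers (edgeR adjusted p = 0.00465), and Gpat2 fell by 0.96 ± 0.28 in WT livers (edgeR adjusted p = 0.0164). Of 10 genes of lipoprotein lipase control other than Angptl4, 3 fell and 0 rose in each genotype, and they were Angptl8, Angptl6 and Apoa5 in both. The list median was above 0 all the same, at 0.16 in knockout and 0.12 in WT livers. Angptl8, which is high after feeding, was at 17.6 ± 3.66 CPM in knockout PRA livers and 51.1 ± 20.5 CPM in knockout vehicle livers (-1.54 ± 0.50, edgeR adjusted p = 0.0466). In WT livers the mean was 12.5 ± 2.05 CPM after PRA, against 35.3 ± 10 CPM after vehicle (-1.49 ± 0.45, edgeR adjusted p = 0.0288).

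Of 15 fatty acid uptake and activation genes, 2 rose in knockout livers, and 3 rose and 3 fell in WT livers (medians 0.03 in knockout and 0.02 in WT livers). For this list and the PPAR-alpha targets below, the background was 16.3% of all genes in knockout and 22.1% in WT livers. Mfsd2a, a carrier of lysophospholipids induced by fasting, averaged 207 ± 4.73 CPM in knockout PRA livers and 48.8 ± 17.4 CPM in knockout vehicle livers (4.24-fold, edgeR adjusted p = 0.000413), and 208 ± 18 CPM in WT PRA livers and 84.5 ± 21.1 CPM in WT vehicle livers (2.46-fold, edgeR adjusted p = 0.00586). Fabp4, a fatty acid carrier of fat cells, macrophages and endothelium, rose 2.02-fold in knockout livers (edgeR adjusted p = 0.00422) and 1.98-fold in WT livers (edgeR adjusted p = 0.00229). Acsl1, which activates fatty acids, fell by 0.78 ± 0.22 in WT livers (edgeR adjusted p = 0.0174). Of 24 PPAR-alpha targets of fasting, 3 rose in knockout livers and 1 rose and 5 fell in WT livers (medians 0.11 in knockout and -0.16 in WT livers). In knockout livers the 3 were Ucp2, a mitochondrial carrier (1.86-fold, edgeR adjusted p = 1.58e-05), Ppargc1a, a coactivator of fasting genes (2.26-fold, edgeR adjusted p = 0.00523) and Pdk4, which restrains glucose oxidation (2.70-fold, edgeR adjusted p = 0.0141). In WT livers Ucp2 rose 1.88-fold (edgeR adjusted p = 3.1e-06), and the fatty acid hydroxylases Cyp4a10 and Cyp4a14, which have near-identical copies, fell by 2.48 ± 0.47 and 3.62 ± 0.80 (edgeR adjusted p = 0.00143 and 0.00478). Cyp4a14 averaged 10.03 ± 2.21 CPM in WT PRA livers, against 124 ± 125 CPM in WT vehicle livers, whose libraries spread widely. In the test of the difference between the genotypes' PRA responses, 0 genes of the 7 lists of other lipid genes passed. The background of that test was 0.475% of all genes.

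Of 19 transcriptional regulators of lipid storage and lipolysis, 6 rose in knockout livers, and 5 rose and 5 fell in WT livers (medians 0.02 in knockout and 0.03 in WT livers). The background was again 16.3% of all genes in knockout and 22.1% in WT livers. Foxo1, a fasting-activated factor known to induce Pnpla2, averaged 64.5 ± 8.31 CPM in knockout PRA livers and 23.4 ± 2.33 CPM in knockout vehicle livers (2.76-fold, edgeR adjusted p = 7.75e-06), and 58.4 ± 6.19 CPM in WT PRA livers and 28.6 ± 6.08 CPM in WT vehicle livers (2.04-fold, edgeR adjusted p = 0.000104). Cebpb, a factor of the acute phase and gluconeogenesis, rose 3.01-fold in knockout livers (edgeR adjusted p = 9e-09) and 3.64-fold in WT livers (edgeR adjusted p = 1.8e-10). Ppard, a fatty acid receptor related to PPAR-alpha, rose 1.77-fold in knockout livers (edgeR adjusted p = 0.000213), and Ppargc1b, a coactivator of lipogenic genes, fell by 1.24 ± 0.24 in WT livers (edgeR adjusted p = 0.000866).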

How the data were processed

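RNA of 19 mouse liver libraries was analysed from gene counts. The authors deposited raw read counts per gene, in a table of the series and in a file per library, and all 19 files held the same values as the table. Per the submitters' processing notes, the build was GRCm39 and the tools were HTSeq 0.11.3, HISAT2 2.2.1 and SAMtools 1.13; the sources used here give neither the annotation release nor the strand setting. Lines for reads assigned to no gene took 28.3 to 33.1% of each library's total and were left out. Groups and replicate numbers came from the titles.

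Counts (32073865 to 74041441 a library) were scaled with TMM (factors 0.8454 to 1.155), filtered by expression over groups and fitted with edgeR 4.0.16 in R 4.3.3, a mean per group over all libraries, with the robust quasi-likelihood test and Benjamini-Hochberg adjustment over 15570 genes in each contrast. The scripts were tested on simulated data. Alternative settings were upper quartile or RLE scaling, no filter or 1 CPM in 3 libraries, DESeq2 1.42.0, limma 3.58.1 voom with sample weights, only the groups compared, a replicate block, a fold threshold of 1.5 and each library left out.

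The members and gene lists were chosen with earlier results of these data known. All 10 members are named; of other lipid lists, up to 3 called genes of smallest p per genotype; and for each member the genes of most similar log2 CPM (prior count 2). Lrg1 was chosen for its position. Exon lengths and overlaps come from GENCODE M21 and promoters from RefSeq, both GRCm38, matched by gene ID or symbol, and no coordinates on GRCm39 are given.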

Additional observations from a re-analysis of the deposited data

Results flagged for a closer look

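Plin2 in the non-injected group had 1 library apart from the others, replicate 4 at 312 CPM, where the other 3 lay at 406.3 to 412.2 CPM, so that the gap took 0.941 of the group's range. Cidec in the same group had replicate 1 at 4.036 CPM, above the other 3 at 3.21 to 3.323 CPM, a gap of 0.863 of the range. These were 2 of 40 combinations of a gene and a group of 4 libraries, and chance flags about 1 in 20. The response of Plin5 to PRA was larger in knockout than in WT livers, by 1.236 on the log2 scale in the test of the difference itself (edgeR adjusted p = 0.0258). This call was lost in 9 of the 19 fits that left out a library. It was also lost with no low-count filter and with the replicate block (edgeR adjusted p = 0.0511 in each).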

How the results depend on the processing

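Same-numbered libraries of different groups had a median correlation of deviations of 0.00536 (36 pairs, 9 over 0.1). Libraries of other numbers had a median of -0.00768 (108 pairs, 16 over 0.1). These values cannot settle whether the replicate numbers pair the libraries. With the replicate block, 3 of the 10 genes were called in WT PRA against vehicle in place of 5, and 0 in the difference between responses in place of 1. The calls lost with the block were those of Plin4 (1.22, adjusted p = 0.0683) and Lpin1 (0.757, 0.0672) in WT livers, G0s2 in knockout livers (-1.68, 0.0567) and Plin5 in the difference (1.18, 0.0511). For WT PRA and the difference the counts were 3 and 0 with no filter, and 1 and 0 with a fold threshold of 1.5, which left 4 in knockout livers in place of 6. That threshold left 0 of 1 between knockout and WT PRA. DESeq2 called 2 in the difference between responses and 2 between knockout and WT vehicle. Fitting only the groups compared called 2 in the difference and 2 between knockout and WT PRA. The cause of these changes was not tested.

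Over all genes, the fold threshold gave 417 in place of 2544 for PRA in knockout livers, 625 of 3437 in WT livers, 17 of 74 for the difference, 81 of 591 between the PRA groups, 4 of 11 between the vehicle groups, 925 of 4421 for WT PRA and 13 of 311 for WT vehicle against no injection. DESeq2 gave 176 for the difference, 927 between PRA groups, 56 between vehicle groups and 655 for WT vehicle against no injection. Limma-voom gave 21 and 648 for the last 2 of these, and only the groups compared gave 7 and 154. Leaving out a library gave 1671 to 2891 genes for PRA in knockout and 2754 to 3523 in WT livers, 37 to 95 for the difference, 314 to 746 between PRA groups, 2 to 15 between vehicle groups, 128 to 369 for WT vehicle and 3629 to 4825 for WT PRA against no injection. Of the 10 genes, 5 to 6 were then called for PRA in knockout and 3 to 5 in WT livers, 0 to 2 in the difference, 0 to 1 between PRA groups, between vehicle groups and for WT vehicle against no injection, and 6 in each case for WT PRA against no injection.

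Signs turned for values near 0, none of them called. Upper quartile scaling gave Abhd5 -0.01873 and Cideb -0.04996 for PRA in knockout livers, and Abhd5 -0.01036 and Cideb -0.04981 for WT PRA against no injection, where the 1 CPM filter gave Cideb -0.003783. Cideb for PRA in WT livers was 0.01489 with RLE, 0.01498 in DESeq2 and 0.008137 with only the groups compared. Limma-voom gave Cideb 0.02498 between PRA groups, Plin2 0.0198 between vehicle groups and 0.05858 for PRA in WT livers, and Cidec -0.05448 for WT vehicle against no injection. The block gave Cidec -0.09067 in that comparison and Lpin1 0.05814 between PRA groups.

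Leaving out a library moved Abhd5 over -0.04341 to 0.1476 for PRA in knockout livers, -0.1346 to 0.05549 between vehicle groups and -0.04471 to 0.1009 for WT PRA against no injection. Cideb moved over -0.04981 to 0.09632 for PRA in knockout and -0.0942 to 0.06838 in WT livers, -0.05588 to 0.116 for the difference, -0.07042 to 0.07601 between PRA groups, -0.1286 to 0.04838 between vehicle groups, and -0.009339 to 0.03728 for WT PRA and -0.06312 to 0.103 for WT vehicle against no injection. Cidec moved over -0.09099 to 0.6211 for PRA in WT livers and -0.419 to 0.2935 for WT vehicle against no injection. Plin2 moved over -0.2022 to 0.04517 for PRA in WT livers, -0.4947 to 0.04 for the difference, -0.3991 to 0.1351 between vehicle groups and -0.1459 to 0.1016 for WT vehicle against no injection. Lpin1 between PRA groups moved over -0.2071 to 0.1562, and Pnpla2 in the difference over -0.05188 to 0.1587.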

Other observations

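Lrg1, chosen for its position, lies 2081 bases from Plin5 on chromosome 17, where Plin4 and Plin5 are 1797 bases apart, and encodes a secreted glycoprotein of the acute phase. Its level was 719.9 ± 154.4 CPM in knockout PRA, 421.2 ± 103.4 in knockout vehicle, 2262 ± 430.3 in WT PRA, 621.8 ± 68.68 in WT vehicle and 421.7 ± 31.72 CPM in non-injected livers. Lrg1 rose by 0.77 ± 0.17 in knockout livers (edgeR adjusted p = 0.00372) and by 1.86 ± 0.17 in WT livers (edgeR adjusted p = 1.08e-07). The difference between the responses was -1.09 ± 0.24 (edgeR adjusted p = 0.0361), against 1.24 ± 0.25 for Plin5, so these neighbours differed between the genotypes in opposite directions. The Plin5 call was lost in several of the other settings given above, and Lrg1 was not examined under them.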
